A study of Mus musculus with 6 samples.

Results

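The striated myosin chains and sarcomeric actins examined here are 10 genes: the light chains Myl7, Myl4, Myl2, Myl3 and Myl1, the heavy chains Myh6, Myh7 and Myh3, and the alpha actins Actc1 and Acta1. They were taken by name, as every non-control probe of the array whose accession carried one of these symbols. That gave 16 probes of the 41174 on the array, and 10 genes of the 18217 that received a symbol. Whole lung RNA was taken from 6 mouse embryos at stage E18.5, close to birth, and each embryo had its own array. The 3 knockout embryos were 15-1Flox/Flox and 15-2-/-: they lacked ECAT15-2, which is the gene Dppa2, and carried the floxed allele of ECAT15-1, which is the gene Dppa4. The 3 wild type embryos were 15-1+/+ and 15-2+/+. All came from intercrosses on a mixed background of 129Sv, C57/BL6 and a Cre or FLPe line of unknown strain, and the labels give neither sex nor litter. All 3 knockouts thus differed from the wild types at both genes, and the effects of the floxed and the null allele cannot be told apart.

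Striated muscle contracts when myosin filaments pull on actin filaments within the sarcomere. Each myosin motor is a heavy chain with the ATPase head, and its neck carries an essential light chain and a regulatory light chain. Heart atrium, heart ventricle and skeletal muscle use different genes for these chains. In mice, heart muscle also reaches into the lung as a sleeve around the pulmonary veins, so a whole lung can hold striated muscle of its own, besides any muscle that stays attached at dissection.

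Each array had 43379 spots that were not controls, none of them saturated, and 63.3% to 68.8% of the probes on the knockout arrays and 66.1% to 66.6% on the wild type arrays were well above background. Levels below are log2 intensities relative to the 75th percentile of the array, which is level 0. A level describes 1 probe across arrays and does not rank genes against each other. The targeted gene Dppa2 had levels of -4.94, -4.98 and -4.08 in knockout lungs, against -3.25, -3.52 and -3.57 in wild type lungs. The probe was well above background on all 6 arrays and every knockout array was below every wild type array, but the difference of -1.22 missed the threshold of 0.05 (limma adjusted p = 0.0601). With a slide block it was -0.69 (adjusted p = 0.183), for knockout 3 minus wild type 3 it was -0.51, and without knockout 3 it was -1.52 (adjusted p = 0.0148). Where its probe lies relative to the deleted part is not given in the sources used here, and Dppa4 was not well above background on any of the 6 arrays. The arrays of wild types 1 and 2 stood apart: Y-linked genes were above background only there, and Xist, the RNA of the inactive X chromosome, had levels of 3.03, 3.13 and 2.75 in knockout lungs against -8.80, -8.63 and 2.56 in wild type lungs. Wild types 1 and 2 shared slide 1 with knockout 3, while slide 2 held knockouts 1 and 2 and slide 3 held wild type 3. Values by slide, and without wild types 1 and 2, are therefore given for the members, the chain ratios and the muscle genes called in the other lists. All 6 markers of lung epithelium had a test, and their median difference was -0.39, with 5 below 0 and 1 above, the surfactant protein Sftpc (0.12).

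All 5 light chains passed the test as lower in knockout lungs: the atrial Myl7 and Myl4, the ventricular Myl3 and the skeletal Myl1 by 2.75-fold to 5.42-fold, and the ventricular Myl2 from a probe that was well above background on only 1 knockout array. The calls of Myl2 and Myl1 were the least steady, and held under 9 of 19 and 6 of 20 other settings. With only probes well above background on all 6 arrays, Myl2 was not tested and 4 genes were called. The 3 heavy chains and the 2 actins did not pass the test. At the main probes, Myl3, a ventricular light chain, had the largest difference of the 10 genes (-2.44 ± 0.15 SE). Acta1, the skeletal alpha actin, had the smallest (-0.09 ± 0.29). The other probe of Myl3 gave -1.37 and did not pass (limma adjusted p = 0.0877). All 10 main probes had differences below 0, with a median of -1.09, while the median over the 26668 probes with a test was 0.02. By limma with Benjamini-Hochberg adjustment over all those probes, 5 of the 10 genes were called lower and 0 higher at an adjusted p under 0.05. At an unadjusted limma p under 0.05 the counts were 7 and 0, and 6649 of the 26668 probes passed, in either direction. Among the main probes of all 13938 genes with a symbol and a test, 0.804% were called lower and 0.309% higher. Among all probes tested, 0.604% were called lower and 0.765% higher. The 10 genes were chosen with earlier results of these data known, so these shares serve as a description only. The main probe of a gene is the probe with the highest mean over the 6 arrays. In 7 of the 10 genes the groups did not overlap, with every knockout array below every wild type array, which held for 13.3% of all probes tested. In a whole lung, fewer cells of a type and less RNA per cell cannot be told apart.

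**Figure D1:**
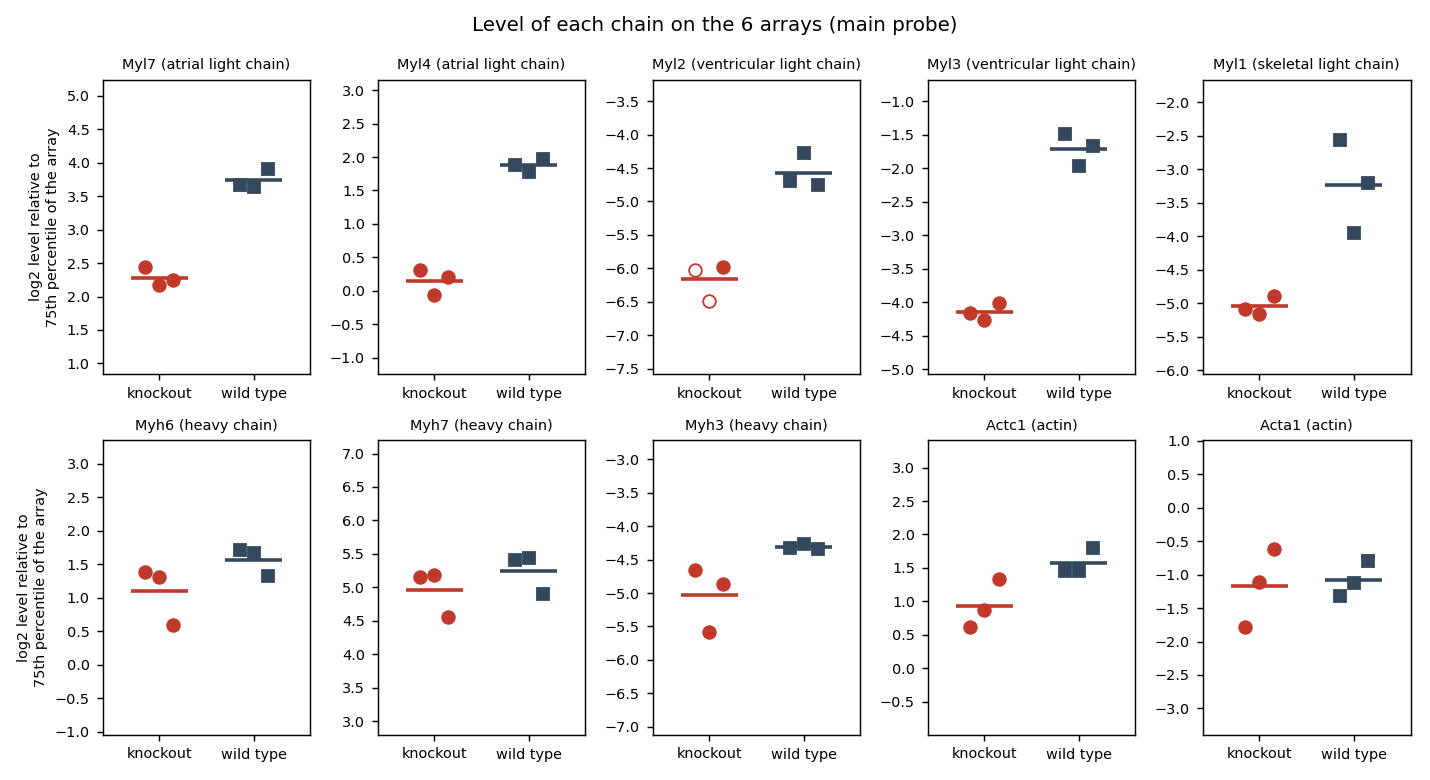
Log2 level relative to the array's 75th percentile (y axis, with the same span but another range in each panel) of the main probe of each of the 10 genes on each array, knockout lungs left and wild type lungs right; lines are means of 3 arrays and open symbols mark arrays where the probe was not well above background. The 5 light chains in the top row have every knockout array below every wild type array, while Myh6, Myh7 and Acta1 overlap.

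The start regions of these genes are of interest because the serum response factor, which drives many muscle genes, binds the CArG box. The 250 bases before the start of transcription are printed from the RefSeq table of the mouse build GRCm38.p6 for 5 genes. They are the light chains Myl7, Myl4 and Myl3, with the steadiest main probe calls, and the actins Actc1 and Acta1, which did not pass. They lie at chr11:5898783-5899032 on the minus strand (Myl7), chr11:104550413-104550662 on the plus strand (Myl4), chr9:110763428-110763677 on the plus strand (Myl3), chr2:114052876-114053125 on the minus strand (Actc1) and chr8:123894776-123895025 on the minus strand (Acta1). Each reads 5′ to 3′ towards the gene, and capitals mark the CArG box.

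Myl7: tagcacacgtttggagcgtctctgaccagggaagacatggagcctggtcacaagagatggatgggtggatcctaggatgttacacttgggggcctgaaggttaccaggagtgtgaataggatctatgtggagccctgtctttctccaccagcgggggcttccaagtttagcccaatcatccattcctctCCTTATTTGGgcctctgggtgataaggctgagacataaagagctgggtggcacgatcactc

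Myl4: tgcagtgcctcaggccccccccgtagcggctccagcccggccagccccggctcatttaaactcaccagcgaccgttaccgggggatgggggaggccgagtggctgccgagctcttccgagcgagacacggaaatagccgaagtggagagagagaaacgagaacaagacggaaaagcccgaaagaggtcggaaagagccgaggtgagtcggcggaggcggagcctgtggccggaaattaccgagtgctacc

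Myl3: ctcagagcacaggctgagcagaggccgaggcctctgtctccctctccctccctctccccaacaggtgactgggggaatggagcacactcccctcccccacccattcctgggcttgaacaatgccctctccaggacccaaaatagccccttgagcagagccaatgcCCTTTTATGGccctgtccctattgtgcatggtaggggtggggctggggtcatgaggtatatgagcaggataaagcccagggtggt

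Actc1: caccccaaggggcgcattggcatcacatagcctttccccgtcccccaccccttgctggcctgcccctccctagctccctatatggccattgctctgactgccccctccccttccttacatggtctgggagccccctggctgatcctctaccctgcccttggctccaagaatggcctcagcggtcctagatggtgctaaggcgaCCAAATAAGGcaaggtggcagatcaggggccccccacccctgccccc

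Acta1: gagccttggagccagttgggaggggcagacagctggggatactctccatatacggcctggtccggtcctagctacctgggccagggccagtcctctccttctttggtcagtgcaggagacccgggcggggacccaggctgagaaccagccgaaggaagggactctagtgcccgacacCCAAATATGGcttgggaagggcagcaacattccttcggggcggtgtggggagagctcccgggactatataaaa

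A CArG box, searched by its full consensus on both strands, was present in the windows (12 for the 10 genes) of Myl7, Myl3, Actc1 and Acta1, beginning 61, 85, 47 and 73 bases before the start. That is 4 of the 10 genes, while 1.47% of the 32851 windows in the table hold one. Here and below, a gene counts if any of its windows holds the motif, while the shares are per window. The 2 are therefore not like measures. The genes with the box were thus 2 light chains called lower and both actins, which did not pass, and the windows of Myl4, Myl2 and Myl1, also called lower, had none. The motif CATTCC, the core of the sites of TEAD factors, was present on either strand in 6 genes (Acta1, Myh6, Myh7, Myl1, Myl3 and Myl7) and in 12.6% of all windows. TATAAA was found in 4 genes (Acta1, Myh3, Myl1 and Myl2) and in 12.4% of all windows. The MEF2 element was in 0 of the 10 genes and in 2.92% of all windows. No matches of different motifs overlapped in these windows, and a match describes the letters only.

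Among the atrial light chains, Myl7 encodes the regulatory chain of the atrium. Its levels were 2.44, 2.17 and 2.24 in knockout lungs, against 3.67, 3.64 and 3.91 in wild type lungs. Every knockout array lay more than 1 log2 unit below every wild type array, and the means were 2.28 ± 0.14 and 3.74 ± 0.15 (SD, n = 3 each). The difference of -1.46 ± 0.13 SE (95% interval -1.76 to -1.16) is a 2.75-fold lower level, with a limma adjusted p of 0.00774. In processed intensities, the arrays gave 8780, 7320 and 7950 in knockout lungs and 21300, 19000 and 24300 in wild type lungs.

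Myl4 encodes the essential light chain of the atrium and is also used by embryonic skeletal muscle. Its main probe had levels of 0.31, -0.06 and 0.20 in knockout lungs, against 1.88, 1.77 and 1.97 in wild type lungs. The groups were far apart compared with their spread, and the difference was -1.72 ± 0.13 SE (3.30-fold lower, limma adjusted p = 0.00472). At the other probe of Myl4 the levels were 0.12, -0.17 and 0.09 in knockout lungs, against 1.88, 1.63 and 2.01 in wild type lungs. That probe gave -1.82 ± 0.14 SE with the same adjusted p of 0.00472, so the 2 probes of Myl4 matched in direction and call.

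Among the ventricular light chains, Myl3 encodes the essential chain, which slow skeletal muscle also uses. The main probe had levels of -4.16, -4.26 and -4.01 in knockout lungs, against -1.49, -1.96 and -1.66 in wild type lungs. All knockout arrays were low and close together, and the difference of -2.44 ± 0.15 SE (95% interval -2.79 to -2.09) is a 5.42-fold lower level (limma adjusted p = 0.00239). Only 19 of all probes tested had a lower difference than this one. The other probe of Myl3 had levels of -4.51, -3.88 and -2.92 in knockout lungs, against -2.31, -2.49 and -2.40 in wild type lungs. There the groups still did not overlap, but knockout 3 lay near the wild type arrays, the SD was 0.80 over the knockout arrays and 0.09 over the wild type arrays, and the difference of -1.37 ± 0.36 SE did not pass (limma adjusted p = 0.0877). Without knockout 3 this probe gave -1.80 and passed (adjusted p = 0.0196). The 2 probes of Myl3 thus disagreed in call and in size, by more than 1 log2 unit.

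Myl2 encodes the regulatory light chain of the ventricle and of slow skeletal muscle. It had levels of -6.02, -6.48 and -5.98 in knockout lungs, against -4.69, -4.28 and -4.76 in wild type lungs. The probe was well above background on 1 of 3 knockout arrays (knockout 3) and on all 3 wild type arrays, so the levels of knockouts 1 and 2 are not well measured. It entered the test through the wild type arrays. With those levels included, the fitted difference was -1.59 ± 0.19 SE (limma adjusted p = 0.0187), and no fold is given. The call was lost without knockout 1 (-1.65, adjusted p = 0.0575), wild type 1 (-1.64, adjusted p = 0.0964) or wild type 2 (-1.44, adjusted p = 0.0667). A background correction by normexp, with an offset of 50 added to each intensity, gave -0.50 (limma adjusted p = 0.0508). Processed intensities of Myl2 were 24.9, 18.2 and 26.7 in knockout lungs and 65.1, 78.2 and 59.6 in wild type lungs. At such intensities the offset itself draws the log2 difference towards 0.

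Myl1 encodes the essential light chain of fast skeletal muscle. Its main probe had levels of -5.08, -5.16 and -4.89 in knockout lungs, against -2.56, -3.95 and -3.20 in wild type lungs. The knockout arrays were close together and the wild type arrays spread widely, with means of -5.05 ± 0.14 and -3.24 ± 0.69 (SD, n = 3 each). The difference of -1.81 ± 0.32 SE (3.50-fold lower) passed narrowly, with a limma adjusted p of 0.0488. The call did not hold without knockout 1, 2 or 3 (-1.79, -1.75 and -1.89, with adjusted p of 0.131, 0.117 and 0.0598) or wild type 1 (-1.47, adjusted p = 0.117). The other probe, designed on a different transcript of Myl1, was not well above background on any of the 6 arrays and was not tested.

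**Figure D2:**
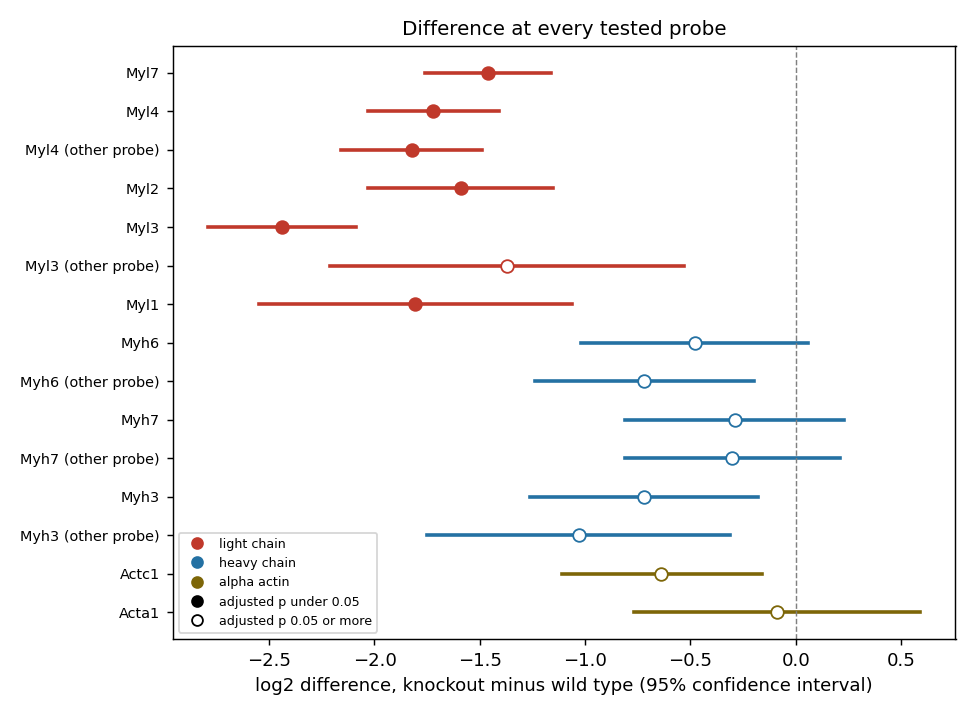
Log2 difference, knockout minus wild type (x axis), with its 95% confidence interval from limma for each of the 15 probes with a test, light chains in red, heavy chains in blue and actins in ochre; filled symbols mark an adjusted p under 0.05. Among light chains 6 of 7 probes are filled, while 0 of 6 heavy chain probes and 0 of 2 actin probes are.

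The heavy chains had smaller differences, between -0.29 and -1.03 at their 6 probes, with a median of -0.60, and 0 of these probes passed in limma, against 3 at an unadjusted p under 0.05. Myh6 encodes the alpha heavy chain, the main motor of the mouse atrium. Its levels were 1.39, 1.31 and 0.59 in knockout lungs, against 1.71, 1.67 and 1.33 in wild type lungs. Knockout 1 lay above wild type 3 and knockout 2 just below it, knockout 3 was the lowest, and the difference was -0.48 ± 0.23 SE (95% interval -1.02 to 0.06, limma adjusted p = 0.247). Its other probe gave 0.67, 0.51 and -0.14 in knockout lungs, against 1.16, 1.18 and 0.84 in wild type lungs. The groups did not overlap at that probe of Myh6, where the difference of -0.72 ± 0.22 SE had a limma adjusted p of 0.115.

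Myh7, the neighbour of Myh6 on chromosome 14, encodes the beta heavy chain of the fetal ventricle and of slow skeletal muscle. Its main probe had levels of 5.16, 5.18 and 4.55 in knockout lungs, against 5.41, 5.44 and 4.90 in wild type lungs. The difference was -0.29 ± 0.22 SE (95% interval -0.81 to 0.23, limma adjusted p = 0.455), and the other probe gave -0.30 (adjusted p = 0.428). Knockout 3 and wild type 3 were the lowest of their groups at both probes of Myh6 and at both probes of Myh7. The main probes of the 2 genes had a Pearson correlation of 0.95 over the 6 arrays, given as a description of arrays that share a scaling and 2 groups.

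Myh3 encodes the heavy chain of embryonic skeletal muscle. Its levels were -4.65, -5.58 and -4.86 in knockout lungs, against -4.33, -4.26 and -4.34 in wild type lungs. The wild type arrays were almost equal (SD 0.05) and all above the knockout arrays, among which knockout 2 was the lowest. The difference of -0.72 ± 0.23 SE did not pass (limma adjusted p = 0.122). The other probe of Myh3, well above background on 1 of 3 knockout arrays, gave -1.03 ± 0.31 SE (limma adjusted p = 0.110).

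The actins form the thin filament. Actc1 encodes cardiac alpha actin, and its levels were 0.61, 0.87 and 1.33 in knockout lungs, against 1.46, 1.45 and 1.80 in wild type lungs. The groups did not overlap, but knockout 3 came close to wild types 1 and 2, and the difference of -0.64 ± 0.20 SE (1.55-fold lower) did not pass (limma adjusted p = 0.119). Acta1, skeletal alpha actin, had levels of -1.78, -1.11 and -0.61 in knockout lungs, against -1.32, -1.12 and -0.80 in wild type lungs. The groups of Acta1 overlapped, with the lowest and the highest array both in the knockout group, and the difference was -0.09 ± 0.29 SE (95% interval -0.77 to 0.59, limma adjusted p = 0.873). A p that misses the threshold does not show equal levels: the intervals of Myh6, Myh7, Actc1 and Acta1 reach to -1.02, -0.81, -1.11 and -0.77.

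Whether chains moved by different amounts was compared within each array, as the log2 ratio of 2 main probes, for 10 pairs. Such a ratio has no meaning as a share of protein or RNA, and only its difference between groups is read. With 3 arrays against 3, the two-sided exact permutation test cannot give a p below 0.1, and the 7 pairs whose groups did not overlap all had p = 0.1 (0.143 after adjustment over the 10 pairs), so 0 of 10 pairs could pass. The sizes are therefore given as measurements. Several pairs share a probe, so the pairs are not separate observations. Among single probes, the groups did not overlap, in either direction, for 8162 of the 26668 tested.

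For the regulatory chains, the log2 ratio of atrial Myl7 to ventricular Myl2 was 8.46, 8.65 and 8.22 in knockout lungs, against 8.36, 7.93 and 8.67 in wild type lungs. The groups overlapped and the difference was 0.13 ± 0.25 SE (exact p = 0.7), or -0.88 with the normexp background correction. The normexp offset of 50 shrinks log2 differences of dim probes, such as those of Myl2, Myl3 and Myl1, and so moves such ratios by itself. For the essential chains, the ratio of Myl4 to Myl3 was 4.47, 4.20 and 4.21 in knockout lungs, against 3.37, 3.73 and 3.63 in wild type lungs. The ventricular chain was thus lower relative to the atrial one in every knockout array, by 0.72 ± 0.14 SE, at the main probes (0.66 on slide 1, 0.05 with normexp). With the other probes of both genes the sign turned, to -0.45, so this contrast rests on which Myl3 probe is read. For the skeletal chain, the ratio of Myl1 to Myl4 differed by -0.09 ± 0.38 SE with overlapping groups (exact p = 0.9), or by 0.59 with normexp, and its ratio to Myl3 differed by 0.63 ± 0.26 SE at the main probes and by -0.43 at the other probes.

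A light chain was also set against a heavy chain or an actin in 3 pairs. In the atrial pair, the ratio of Myl7 to Myh6 was 1.05, 0.86 and 1.65 in knockout lungs, against 1.96, 1.97 and 2.58 in wild type lungs, a difference of -0.98 ± 0.31 SE. On slide 1 that difference was -0.31, and for knockout 3 minus wild type 3 it was -0.93. In the ventricular pair, the ratio of Myl2 to Myh7 was -11.18, -11.66 and -10.53 in knockout lungs, against -10.10, -9.72 and -9.66 in wild type lungs, a difference of -1.30 ± 0.35 SE. It was -0.62 on slide 1, -0.87 for knockout 3 minus wild type 3 and -0.27 with normexp, and the levels of Myl2 in knockouts 1 and 2 were not well above background. The ratio of Myl7 to Actc1 was 1.82, 1.30 and 0.91 in knockout lungs, against 2.21, 2.19 and 2.11 in wild type lungs, a difference of -0.82 ± 0.27 SE, with -1.29 on slide 1 and -1.20 for knockout 3 minus wild type 3. In each of these 3 pairs all knockout arrays lay below all wild type arrays.

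Within the heavy chains and the actins, the ratio of Myh6 to Myh7 differed by -0.19 ± 0.08 SE (-0.23 on slide 1) and that of Acta1 to Actc1 by 0.55 ± 0.16 SE (0.74 on slide 1), both without overlap. The ratio of Myh3 to Myh7 differed by -0.43 ± 0.43 SE (0.31 on slide 1), and its groups overlapped (exact p = 0.4). On slide 1 the ratio of Myl7 to Myl2 differed by 0.08, that of Myl1 to Myl3 by 0.65 and that of Myl1 to Myl4 by -0.01.

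**Figure D3:**
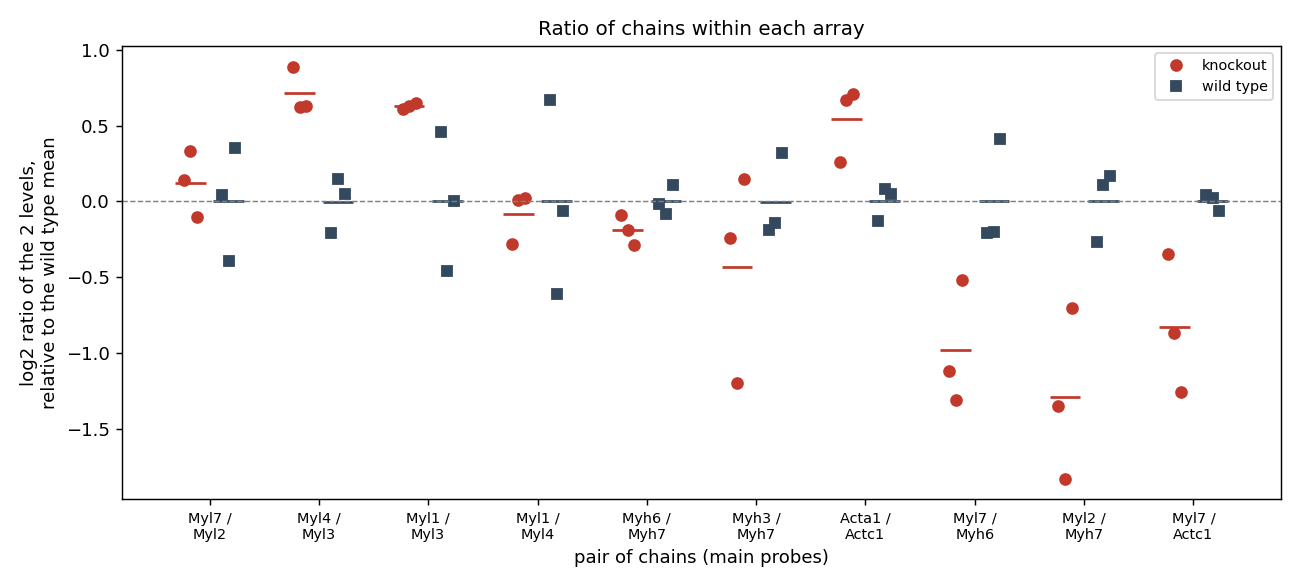
Log2 ratio of the main probes of 2 chains within each array, relative to the mean of the wild type arrays (y axis), for the 10 pairs (x axis); circles are knockout and squares wild type arrays, and lines are means of 3. The ratios of Myl7 to Myh6, Myl2 to Myh7 and Myl7 to Actc1 lie below those of every wild type array, while those of Myl7 to Myl2 and Myl1 to Myl4 overlap.

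At the main probes, the light chain differences stayed between -1.22 and -2.48 in subsets of arrays that hold the slide or the sex-linked RNA constant. On slide 1, knockout 3 minus the mean of wild types 1 and 2 gave -1.42 for Myl7, -1.62 for Myl4, -1.50 for Myl2, -2.29 for Myl3 and -1.64 for Myl1. Knockout 3 minus wild type 3, which both had Xist and no Y-linked signal, gave -1.67, -1.77, -1.22, -2.35 and -1.70 for the same 5 genes in that order. With wild types 1 and 2 left out, the 3 knockouts minus wild type 3 gave -1.63, -1.82, -1.40, -2.48 and -1.85. The other probe of Myl4 gave -1.66, -1.91 and -1.99 in these 3 subsets. The other probe of Myl3 was smaller on slide 1 and against wild type 3 alone, with -0.53 in both, and -1.37 with wild types 1 and 2 left out.

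These subsets hold few arrays, and the calls were lost in them. With the slide as a block, the limma adjusted p was 0.0729 for Myl7, 0.0729 for Myl4, 0.103 for Myl2, 0.0609 for Myl3 and 0.234 for Myl1. With a term for wild types 1 and 2, the main probe of Myl3 (adjusted p = 0.0399) and the other probe of Myl4 (adjusted p = 0.0459) passed, and the other 9 main probes did not. The heavy chains and actins were less steady. On slide 1 the differences were -1.11 for Myh6, -0.87 for Myh7, -0.57 for Myh3, -0.13 for Actc1 and 0.61 for Acta1. Against wild type 3 the 3 knockouts gave -0.23, 0.06, -0.69, -0.87 and -0.37 for these genes in that order, so that Myh7 and Acta1 took either sign.

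**Figure D4:**
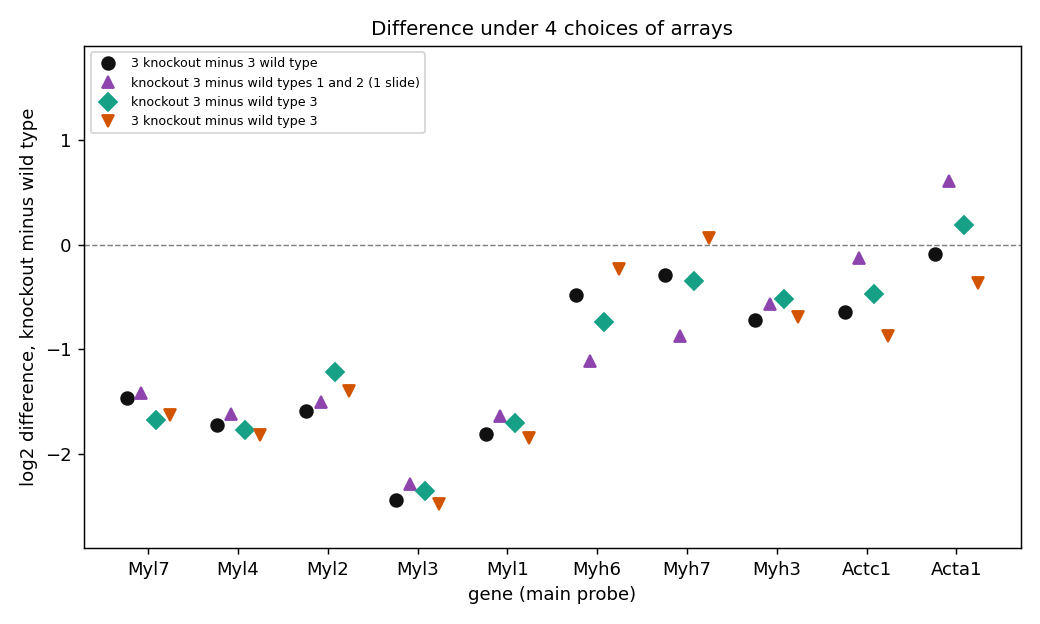
Log2 difference, knockout minus wild type (y axis), of the main probe of each gene (x axis) from all 6 arrays (circles), from knockout 3 against wild types 1 and 2 on slide 1 (upward triangles), from knockout 3 against wild type 3 (diamonds) and from 3 knockouts against wild type 3 (downward triangles). The 5 light chains stay between -1.22 and -2.48, and Acta1 ranges from -0.37 to 0.61.

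Other muscle genes were read through lists of main probes, some of which share genes. Their counts at an unadjusted limma p under 0.05 stand beside 6649 of all 26668 probes tested, in either direction. Of 21 other striated myosin chains and myosin partners, 18 were on the array and 12 had a test: 2 fell, 0 rose (4 and 1 at an unadjusted p under 0.05), and the median difference was -0.40. Mybphl, a myosin binding protein known from atrial muscle, had levels of -4.93, -5.51 and -5.37 in knockout lungs, against -3.05, -3.11 and -3.02 in wild type lungs, and fell by 2.21 (limma adjusted p = 0.00372). Mybpc3, the cardiac myosin binding protein C, had levels of -1.08, -1.82 and -1.90 in knockout lungs, against 0.30, -0.01 and 0.34 in wild type lungs. Its difference of -1.81 passed (adjusted p = 0.0232), but not without knockout 2, wild type 1 or wild type 2. The adult fast heavy chain Myh4 had -1.22 (adjusted p = 0.0584), and Mylpf, the regulatory light chain of fast skeletal muscle, had 0.48 (adjusted p = 0.177; -0.02 with a block for the file name number). Mylpf levels were -0.79, -0.51 and -0.87 in knockout lungs and -1.51, -1.25 and -0.85 in wild type lungs, so that wild type 3 lay among the knockout arrays. Myh1 and Myh2, also heavy chains of adult fast muscle, were not well above background on any array.

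Of 12 smooth muscle and non-muscle chains and actins, all had a test, 0 passed in limma in either direction (1 lower and 0 higher at an unadjusted p under 0.05), and the median was -0.13. The smooth muscle heavy chain Myh11 had 0.47 (adjusted p = 0.303), Acta2, smooth muscle alpha actin, had -0.06, and Myl12a, a non-muscle regulatory light chain, had -0.33 (adjusted p = 0.161). Of 17 regulators of sarcomere genes, 10 had a test, 1 fell and 0 rose (2 and 2 at an unadjusted p under 0.05), with a median of -0.02. The one that fell was Nkx2-5, a transcription factor of heart muscle, with levels of -4.96, -5.27 and -5.13 in knockout lungs, against -3.44, -3.39 and -3.34 in wild type lungs (difference -1.73, limma adjusted p = 0.00318). Myocd, a coactivator of the serum response factor, had 0.42 (adjusted p = 0.0826). The skeletal regulators Myod1, Myog, Myf5 and Myf6 were not well above background on any of the 6 arrays.

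Markers of heart muscle were also lower in knockout lungs. Of 8 markers of any cardiac muscle, all had a test, 5 fell and 0 rose (7 and 0 at an unadjusted p under 0.05), with a median of -1.57. Their summed level was 1.48, 1.62 and 1.15 in knockout lungs, against 2.69, 2.70 and 2.57 in wild type lungs. The 5 were Csrp3 (-2.14), which encodes a protein of the Z-disc, Nkx2-5, and the troponins Tnnc1 (-1.71), Tnni3 (-1.44) and Tnnt2 (-1.42), with limma adjusted p between 0.00318 and 0.0251. Leaving out wild type 1 ended the calls of the 3 troponins, and other single arrays ended those of Tnnc1 (wild type 2) and Tnnt2 (knockout 1 and wild type 2).

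Of 8 atrial markers beyond the members, 7 had a test and 2 fell, Mybphl and Sln, with 0 higher (4 and 0 at an unadjusted p under 0.05) and a median of -0.53. Sln, sarcolipin, had -2.05 (limma adjusted p = 0.0113; not called without wild type 1), Nppa, an atrial peptide hormone, had -1.43 (adjusted p = 0.11), and Bmp10 was below background on all 6 arrays. The summed atrial level was 4.59, 4.48 and 4.70 in knockout lungs, against 4.74, 4.87 and 4.72 in wild type lungs. That sum is weighted towards its brightest probes, those of Tbx5 and Nr2f2, transcription factors that other lung cells also use. Tbx5 had 3.65 in knockout and 3.65 in wild type lungs, and Nr2f2 had 3.24 in knockout and 3.45 in wild type lungs. Of 4 ventricular markers, 2 had a test and 1 fell: Pln, phospholamban, which was below background on every knockout array. By an approximate bound it was at least 1.73-fold lower there. Its limma adjusted p of 0.00806 comes from values near background, and normexp gave 0.0745. Hey2, a ventricular regulator, had -0.16 (adjusted p = 0.375), and Irx4, a ventricular transcription factor, and Nppb, a natriuretic peptide of heart muscle, were below background on all 6 arrays. The summed ventricular level was -3.40, -3.36 and -3.44 in knockout lungs, against -3.01, -3.14 and -2.94 in wild type lungs.

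Of 14 skeletal muscle markers beyond the members, 8 had a test, 1 fell (the calcium channel Cacna1s, -1.37, limma adjusted p = 0.0404) and 0 rose (1 and 1 at an unadjusted p under 0.05), with a median of 0.09. The call of Cacna1s was lost without knockout 1, knockout 3, wild type 1 or wild type 2. Their summed level was 0.16, 0.46 and 0.17 in knockout lungs, against 0.14, 0.21 and 0.29 in wild type lungs, and Myod1, Myog, Pvalb and Chrna1 were below background on all 6 arrays. Of the lung's own markers, 0 of 6 epithelial and 0 of 5 vessel and stroma genes passed in limma (3 and 1 at an unadjusted p under 0.05), with medians of -0.39 and 0.07. Those with the smallest p were Scgb1a1, a secretory protein of the airway (-1.73, adjusted p = 0.073), and Foxa2, an epithelial transcription factor (-0.29, adjusted p = 0.182), and in the second list Pecam1, an endothelial adhesion protein (0.57, adjusted p = 0.123), and Myh11. In these muscle lists too, calls were lost when slide or wild types 1 and 2 were allowed for. With the slide as a block Pln alone was called (limma adjusted p = 0.0416), from values below background on every knockout array. Sln (0.0548), Tnni3 (0.0639), Mybphl (0.0669), Nkx2-5 (0.0669), Csrp3 (0.0683), Tnnt2 (0.0683), Mybpc3 (0.0882), Tnnc1 (0.103) and Cacna1s (0.167) missed the threshold. With a term for wild types 1 and 2, Csrp3 (0.0448) and Nkx2-5 (0.0459) were called and the others were not, and 0 genes of these lists were called with wild types 1 and 2 left out or with a block for the file name number. With no filter on dim probes, 2 of the 8 cardiac markers were called. Sizes changed less: on slide 1 the differences were -2.01 for Csrp3, -1.71 for Nkx2-5, -2.30 for Mybphl, -2.05 for Mybpc3, -2.47 for Sln, and -1.70, -1.69 and -1.82 for Tnnc1, Tnni3 and Tnnt2. Against wild type 3 the 3 knockouts gave -2.31, -1.79, -2.25, -1.94, -1.98, -1.55, -1.50 and -1.27 in the same order. The part of the number of heart muscle cells in the light chain differences was not tested.

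**Figure D5:**
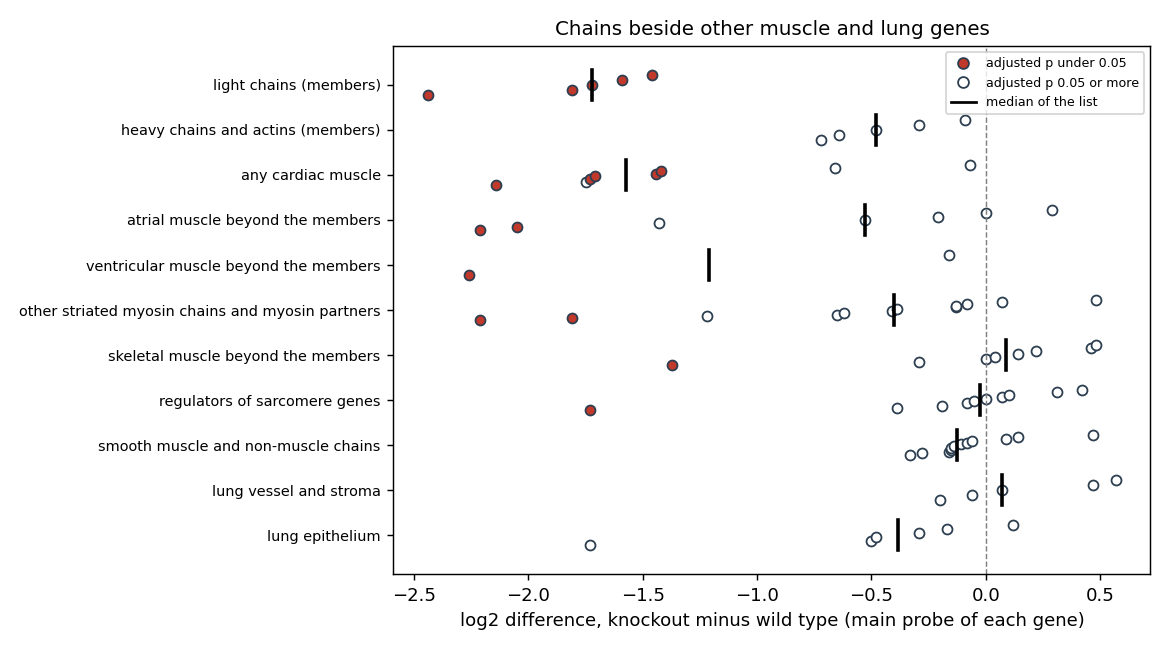
Log2 difference, knockout minus wild type (x axis), of the main probe of each gene with a test in the lists named on the y axis; filled symbols mark an adjusted p under 0.05 and bars are list medians. The light chains (median -1.72) and the markers of any cardiac muscle (median -1.57) lie to the left. The smooth muscle and non-muscle chains (median -0.13) lie near 0. Pln, in the ventricular list, is drawn at its fitted value although the knockout arrays give only an approximate bound.

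The genes whose main probes varied most like a member over the 6 arrays were found among 3274 genes by Pearson correlation, as a description. For Myl7 they were Actn2 (0.998), Sh3bgr (0.997) and Nkx2-5 (0.996), and for Myl2 they were Chil3 (0.997), Zfp750 (0.992) and Macc1 (0.992). For Myh7 they were Ccdc153 (0.998), Slc35d3 (0.980) and Tmem130 (0.974), and for Acta1 they were Ttll10 (0.968), Hs3st3b1 (0.964) and Gnrh1 (0.952). The 6 arrays share a scaling and fall into 2 groups, and no p is given for these values. For Myl2, the levels of knockouts 1 and 2 were not well above background.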

How the data were processed

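Per the labels, whole lung RNA was labelled with Cy3 and hybridised in 1 colour to 44K arrays, 4 per slide. Per the file headers, spots were read by Agilent Feature Extraction 10.7.3.1. The deposited intensity of each spot is background-subtracted, with no scaling between arrays. The authors' deposited log2 values had correlations of 0.992 to 0.997 with quantile-normalized log2 intensities centred on the wild type median (column medians 0.0108, -0.00698 and -0.000844 in knockouts 1, 2 and 3, and 0 in each wild type). Their direction and log base therefore follow from that comparison, and they served as an alternative only.

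Here, log2 intensities minus the array's 75th percentile were used, with outlier spots (77 to 110 per array) left out and spots of a probe averaged. A probe was kept where all 3 arrays of either group had it well above background. limma 3.58.1 in R 4.3.3 (lmFit, eBayes, two-sided, no covariate) compared 3 knockout with 3 wild type arrays over 26668 probes. Calls are at a Benjamini-Hochberg adjusted p under 0.05. The procedure was tested on simulated arrays with independent noise at each probe. These held no slide or sex differences, so they do not bear on calls that were lost when those were allowed for. The number of arrays limits the precision. "At least" folds use, per array, the lowest signal called well above background. Some probes with a higher signal were not called, such as Myl2 on knockout 2 (-6.48, against a lowest of -6.86), so these bounds are approximate. A RefSeq table on GRCm38.p6 named 26690 of 41174 probes (64.8%). Summed levels add the scaled linear intensities of a list's main probes that were tested. Bright probes weigh most in them, so they are not amounts of RNA. All 10 members are named with every probe; from each list, the genes called and the 2 with the smallest p, and further members for their role. The 10 genes and the lists were chosen with earlier results of these data known. Alternatives covered scaling, background correction (normexp used the spot median, since the files used here hold no spot mean), filters, probes per gene, slide, file name number (the number that opens each array's file name, shared by knockout 3 and wild type 3), replicate block, wild types 1 and 2, and each array left out. The spot median, knockout 3 against wild type 3 alone, and ratios within slides were chosen after seeing the data. Normexp added an offset of 50 to each corrected intensity, which draws log2 differences of dim probes towards 0. Ratios of chains were compared by exact permutation.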

Additional observations from a re-analysis of the deposited data

How the results depend on the processing

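All 10 members kept a difference below 0 in every alternative run except Myh7, which turned to 0.06 with a term for wild types 1 and 2 and with them left out, and Acta1, which turned to 0.61 with the slide as a block and to 0.19 with a file name number block and in knockout 3 against wild type 3. Leaving out 1 array each gave -0.37 to 0.22 for Acta1. The 5 members called lower became 2 with no filter on dim probes, 0 with the slide block, 0 with the file name number block, 1 with the term for wild types 1 and 2, 0 with wild types 1 and 2 left out, and 3 to 5 with 1 array left out. With wild types 1 and 2 left out, wild type 3 is the only wild type and is assumed to vary like the knockouts. For the members, the slide block gives the same differences as knockout 3 minus wild types 1 and 2. The file name number block gives those of knockout 3 minus wild type 3. The term for wild types 1 and 2 gives those of leaving them out, so these are not separate checks. Replicate numbers do not pair the arrays (correlations of same-numbered deviations -0.02, 0.03 and 0.02). With a replicate block, 3 members were called, and 79 of all probes. Over the alternatives the difference was -1.67 to -1.38 for Myl7 (called in 15 of 20), -1.86 to -1.55 for Myl4 (16 of 20), -2.57 to -1.60 for Myl3 (17 of 20), -1.75 to -0.50 for Myl2 (9 of 19) and -2.16 to -0.96 for Myl1 (6 of 20); adjusted p lay between 0.00344 and 0.174, 0.00158 and 0.207, 0.00146 and 0.141, 0.0113 and 0.692, and 0.032 and 0.919 in that order. The 365 probes called became 33 with no filter, 113 with probes above background on at least 1 array, 29 with the slide block, 4 with the file name number block, 24 with the term for wild types 1 and 2, and 0 by limma with them left out (1837 at an unadjusted p under 0.05). With 1 array left out, 40 (without wild type 1) to 2236 (without wild type 3) were called. The split of higher and lower calls moved with the scaling: 204 and 161 as reported, 94 and 189 with quantile normalization, 118 and 279 with median scaling, 86 and 177 with normexp, and 78 and 173 with the authors' values. Median scaling moved the median of all probes to -0.11. Normexp included an offset of 50, which acts on dim probes such as that of Myl2 more than on bright ones. Ratios of a bright to a dim probe therefore move with this setting. The ratio of Myl7 to Myl2 turned to -0.88 with normexp and lay between -0.07 and 0.30 with 1 array left out. The ratio of Myl1 to Myl4 turned to 0.59 with normexp and to 0.01 with other probes, and lay between -0.39 and 0.25 with 1 array left out. With other probes, Myl4 to Myl3 turned to -0.45 and Myl1 to Myl3 to -0.43, and 5 pairs in place of 7 had no overlap. Mylpf turned to -0.02 with the file name number block. The other probe of Myl3 was called in 1 of 19 alternatives, with differences from -1.80 to -0.53. Signal near background limits Myl2, Myl1 and Myh3. The causes were not tested.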
